A study of Mus musculus with 3 samples.

Results

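The genes described here are 36 immediate early and heat shock genes of the mouse, picked by symbol from the 51912 genes counted in lymph node stromal cells. By role they were 8 AP-1 and ATF factors (Fos, Fosb, Fosl2, Jun, Junb, Jund, Atf3 and Atf4), 3 EGR factors (Egr1, Egr2 and Egr3), 3 NR4A receptors (Nr4a1, Nr4a2 and Nr4a3), 3 KLF factors (Klf2, Klf4 and Klf6), 3 IER genes (Ier2, Ier3 and Ier5), 8 feedback regulators (Dusp1, Btg1, Btg2, Zfp36, Zfp36l1, Socs3, Nfkbia and Tnfaip3), 6 heat shock genes (Hspa1a, Hspa1b, Dnajb1, Hsph1, Hsp90aa1 and Hspa8), and Myc and Rhob. The choice used gene names and no measured value, although results of these data were known when it was made.

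Immediate early genes are transcribed within minutes of a stimulus, from promoters that need no newly made protein, and many encode transcription factors such as the Fos and Jun subunits that pair to form AP-1. Others limit the same response: DUSP1 removes phosphate from MAP kinases, ZFP36 and ZFP36L1 shorten the life of mRNAs, SOCS3 inhibits cytokine receptors, and IκBα (Nfkbia) and A20 (Tnfaip3) restrain NF-κB. Heat shock genes encode chaperones that bind unfolded proteins and are switched on by HSF1. Both groups are known to respond to enzymatic dissociation of tissue as well as to signals in the animal.

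The 3 libraries came from LNs of C57BL/6 mice in which Cxcl13-Cre marked stromal cells with TdTomato, and all mice had received antigen as immune complexes (ICs). The 2-IC mice had 2 antigen-ICs, injected 7 days and 24 h before analysis, and gave 2 libraries, whereas the 1-IC mice had 1 antigen-IC at 24 h and gave 1 library. LNs of several mice were pooled and, per the labels, digested with collagenase, dispase and DNase (the study's methods name no dispase), live PDPN+ CD31- CD45- TdTomato+ cells were sorted, and the 10x Genomics 3′ kit was used, so that no library was free of enzymatic digestion. The short descriptions of the 2-IC libraries name different times and conflict with each other, and they were grouped by their titles, while the age of the mice was not given in the sources used here.

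The files held 5486 barcodes and 37162530 UMIs, and the median depth per barcode ran from 4120.5 UMIs in 2-IC replicate 1 to 9468 in 2-IC replicate 2. The limits on genes, mitochondrial UMIs and contaminant genes left 2243 cells, of which 1389 passed a gate. A cell was put in the first of 5 gates whose gene had at least 2 UMIs, in the order Cr2 (the gene of FDCs), Madcam1 (marginal reticular cells, MRCs), Tnfsf11 (interfollicular reticular cells, IFRCs), Fmod (T-B reticular cells, TBRCs) and Inmt (medullary reticular cells, MedRCs). The gates held 149, 54, 329, 156 and 701 cells. Some sums rested on few cells. In 2-IC replicate 1, 2-IC replicate 2 and 1-IC, the Madcam1 gate held 28, 8 and 18 cells. The Fmod gate held 87, 54 and 15, and the Cr2 gate 83, 27 and 39. None of the gate genes is among the 36. In the 2 2-IC libraries 76 barcodes were shared, 15 of them kept, and leaving shared barcodes out is given with the alternatives.

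Markers that did not set the gates were checked in CPM of the sums (UMIs of a gene relative to all UMIs of a sum, scaled alike), as the mean ± SD over 3 libraries. Fcer2a, the low-affinity IgE receptor of FDCs, stood at 253 ± 20.8 in the Cr2 gate and at no more than 45.1 in any library of another gate. The 6 FDC markers, Cr2 among them, summed to 22268 ± 6643 in Cr2 and 20322 ± 2868 in Madcam1. Their means in Tnfsf11, Fmod and Inmt were 6322, 5683 and 3096. The sum of this list thus did not set the Cr2 gate apart from Madcam1. The IFRC list, Ch25h and the gate gene Tnfsf11, summed to 617 ± 150 in Madcam1 and 487 ± 101 in Tnfsf11. It thus did not set the Tnfsf11 gate apart from Madcam1. Of the TBRC list only Fmod was counted, so no marker apart from the gate gene was checked for the Fmod gate. Enpp2 was at 5357 ± 1454 in the Madcam1 gate and at 4855 ± 551 in the Tnfsf11 gate, and Cyp2f2 was at 201 ± 60.0 in the Inmt gate, 84.7 ± 63.7 in the Tnfsf11 gate and 74.5 ± 129 in the Cr2 gate. The 3 MedRC markers summed to 56.4, 701 and 3.93 in the Cr2 sums of 2-IC replicate 1, 2-IC replicate 2 and 1-IC, and the 6 FDC markers to 24733, 14745 and 27327, where each list includes the gene of its gate. The Cr2 sum of 2-IC replicate 2 thus stood apart, and it also held the highest Cr2 levels of Fos, Jun, Egr1, Nr4a1 and Klf4. Over all gates, 2-IC replicate 2 was the highest library for Egr1 in 5 gates and for Jun in 3. It was so in 1 gate for Fos and in 2 each for Nr4a1 and Klf4. Without that library 21 members were still lower in the Cr2 gate, as many as with it. The gates were not pure types, as Inmt itself was at 540.3 ± 231 in the Tnfsf11 gate and 193 of its 329 cells, 76 of 149 Cr2 cells and 29 of 54 Madcam1 cells also passed another gate. T cell markers, summed over 5 genes, were at 27.3, 5.96 and 11.8 in the Cr2 sums of 2-IC replicate 1, 2-IC replicate 2 and 1-IC. Their means were 0 in Madcam1, 4.77 in Tnfsf11, 1.78 in Fmod and 1.69 in Inmt. Of these genes, Cd3e was at 0 in 4 gates, and in the Cr2 gate it was at no more than 3.64. Cells with any count of the contaminant genes, Trac and Cd3d among them, had already been left out. Endothelial markers, summed over 4 genes, were at 24.1 ± 2.54 in Cr2, 66 ± 46.4 in Madcam1, 83.7 ± 10.7 in Tnfsf11, 102 ± 22.2 in Fmod and 105 ± 18.6 in Inmt. Their means rose in the order in which many early genes rose. Plvap gave most of the sum in the Inmt gate, where Kdr was at no more than 0.353 and Pecam1 at no more than 3.7. Myeloid markers, summed over 4 genes, were at 112 ± 83.3 in Cr2 and 18.8 ± 12.7 in Inmt. The part of the T cell, endothelial and myeloid lists in the results was not tested.

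Promoter sequences are shown for 5 members as examples of the heat shock core, the cAMP response element and the CArG box, chosen with the results known, and the other members with a motif are not printed. The RefSeq table, on GRCm38.p6, held windows from 250 bases before to 50 after the start for 30 of the 36 members. The stretches printed run 5′ to 3′ over the 250 bases before the start, all on the minus strand, at chr17:34972157-34972406 for Hspa1a, chr17:34959239-34959488 for Hspa1b, chr17:26508473-26508722 for Dusp1, chr1:134079156-134079405 for Btg2 and chr7:28379229-28379478 for Zfp36. Capitals mark the core of the heat shock element in Hspa1a and Hspa1b (GAANNTTC, beginning 104 bases before the start), the cAMP response element in Dusp1 and Btg2 (TGACGTCA, 143 and 166 bases before) and the CArG box in Zfp36 (58 bases before), which binds serum response factor.
Hspa1a: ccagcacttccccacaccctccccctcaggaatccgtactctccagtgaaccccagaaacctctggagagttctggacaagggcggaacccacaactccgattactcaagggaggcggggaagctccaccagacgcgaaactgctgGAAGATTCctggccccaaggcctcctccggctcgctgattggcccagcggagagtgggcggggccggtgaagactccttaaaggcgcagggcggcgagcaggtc
Hspa1b: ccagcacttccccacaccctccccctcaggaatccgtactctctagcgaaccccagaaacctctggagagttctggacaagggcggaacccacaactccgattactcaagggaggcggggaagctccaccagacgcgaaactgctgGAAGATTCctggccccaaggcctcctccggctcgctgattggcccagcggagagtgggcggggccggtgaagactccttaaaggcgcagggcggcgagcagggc
Dusp1: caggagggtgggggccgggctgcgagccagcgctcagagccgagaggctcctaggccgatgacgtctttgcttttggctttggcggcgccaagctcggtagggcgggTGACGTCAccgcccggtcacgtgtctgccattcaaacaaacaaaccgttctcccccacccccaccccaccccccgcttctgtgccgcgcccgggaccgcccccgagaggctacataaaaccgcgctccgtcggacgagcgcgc
Btg2: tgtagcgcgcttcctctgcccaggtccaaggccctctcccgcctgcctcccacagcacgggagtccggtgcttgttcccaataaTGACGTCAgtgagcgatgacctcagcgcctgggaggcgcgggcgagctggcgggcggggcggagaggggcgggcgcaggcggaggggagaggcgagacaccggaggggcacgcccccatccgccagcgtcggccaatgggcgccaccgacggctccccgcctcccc
Zfp36: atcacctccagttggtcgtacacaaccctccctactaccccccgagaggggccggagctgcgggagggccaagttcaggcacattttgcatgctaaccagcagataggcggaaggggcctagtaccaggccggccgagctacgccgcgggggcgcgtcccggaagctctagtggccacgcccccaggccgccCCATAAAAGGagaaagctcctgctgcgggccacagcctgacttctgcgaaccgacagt

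Hspa1a and Hspa1b were identical at 247 of these 250 positions (98.8%), and since the genes are near-identical copies, the split of reads between them is uncertain. On either strand, the heat shock core was in the windows of 5 of 30 members, among them 3 of 4 heat shock genes, against 9.04% of 27025 genes. The cAMP response element was in 2 of 30 members against 2.03% of genes, the CArG box in 2 against 1.81%, and the AP-1 motif TGANTCA in 2 (Tnfaip3 and Zfp36l1) against 8.97%. No member had GCGTGGGCG, bound by EGR factors, or AAAGGTCA, bound by NR4A receptors. No member held both the cAMP response element and the AP-1 motif, and no printed stretch held more than 1 of these motifs. A match is a description of letters and shows no binding.

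To ask how the response differed between stromal types, UMIs were summed per library and gate, giving 15 sums, and tested with edgeR's quasi-likelihood test with the library as a block and Benjamini-Hochberg adjustment over 7950 genes. Most AP-1, EGR, NR4A, IER and feedback genes were higher in the Inmt gate than in the Cr2 gate, as were 15.7% of all genes. Of the 6 heat shock genes 2 passed across the 5 gates, near the share of 29.3% over all genes. Across the 5 gates 29 of 34 tested members differed, beside 29.3% of all genes. Egr3 and Nr4a3 were too low to test. Not passing were Atf4, Hspa1a, Hsph1, Hsp90aa1 and Hspa8, with adjusted p between 0.0588 and 0.534.

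Each gate was then set against the mean of the other 4. In the Inmt gate 26 of 34 members were higher (11.9% of all genes) and 1, Tnfaip3, was lower (7.74%), with a median log2 difference of 0.90 over the 34 members beside 0.014 over all genes. In the Cr2 gate 21 were lower (10.5%) and 3, Klf6, Tnfaip3 and Hspa1b, were higher (13.3%), with medians of -0.90 and 0.0084. The Madcam1 gate had 16 lower (3.82%) and 2 higher (3.91%), with medians of -0.62 and -0.025. The Fmod gate had 17 higher (7.55%) and 1 lower (4.31%), with medians of 0.48 and -0.0023. The Tnfsf11 gate had 0 higher (4.25%) and 2 lower (2.65%), with medians of 0.022 and 0.032, and 0 were higher also by DESeq2. At an unadjusted p under 0.05 by edgeR, 11 of 34 members differed there in either direction. The share of all genes at that cut was not counted. Without 2-IC replicate 1, the library with most cells, the counts were 21 higher for Inmt, 13 lower for Cr2, 8 lower for Madcam1 and 5 higher for Fmod. Without the block for library they were 16, 9, 1 and 3. The shares over all genes were not counted for either fit.

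**Figure D1:**
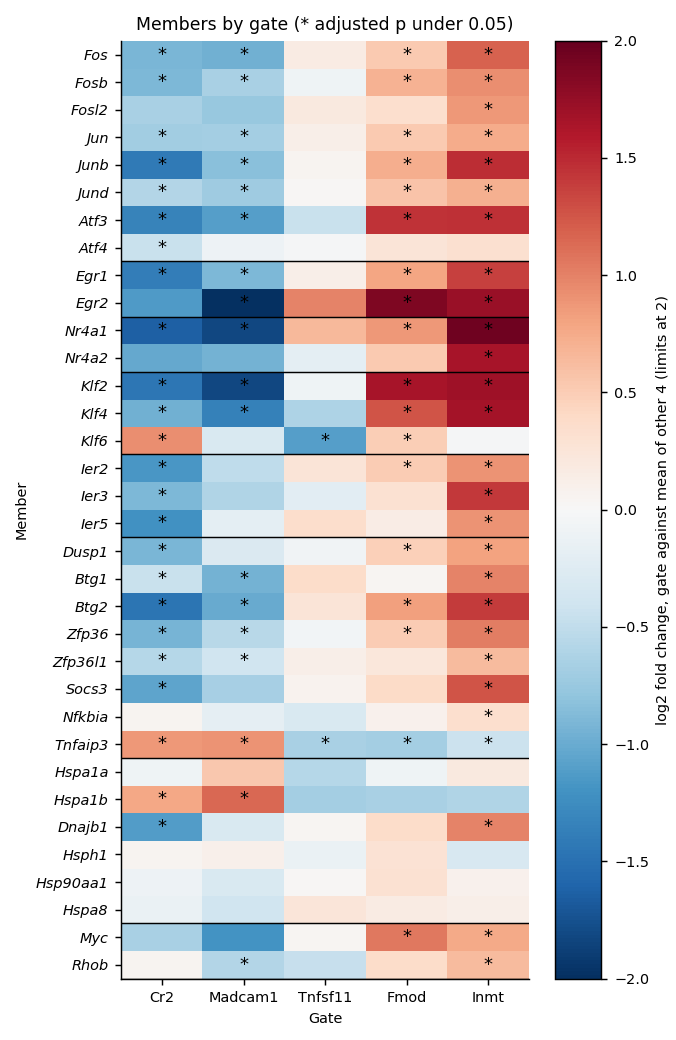
The colour gives, for each of 34 tested members (one per line), the log2 difference between a gate and the mean of the other 4, with an asterisk where edgeR's adjusted p was under 0.05 and the colour ending at 2 in either direction. Blue fills the Cr2 and Madcam1 columns and red the Fmod and Inmt columns for most early genes, with Klf6, Tnfaip3 and Hspa1b the other way in the Cr2 column and pale cells for most heat shock genes.

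Types next to each other in the order Cr2, Madcam1, Tnfsf11, Fmod and Inmt were compared in pairs. Between the Cr2 and Madcam1 gates 1 member passed (5.23% of genes), Klf6, and between the Fmod and Inmt gates 1 passed (2.88%), Btg1, which was lower in Fmod by 0.75 on the log2 scale. Between Madcam1 and Tnfsf11 12 passed, 9 lower in Madcam1 (3.67%) and 3 higher (3.85%), and between Tnfsf11 and Fmod 6 were lower in Tnfsf11 (2.77%). Without 2-IC replicate 1 these last counts were 3 and 1, and without 2-IC replicate 2 the count between Tnfsf11 and Fmod was 15. The ends of the order, Cr2 and Inmt, differed for 28 members, 25 lower in Cr2 (15.7% of genes) and 3 higher (14.9%). Against Inmt, 18 were lower in Tnfsf11 (2.08%) and 25 in Madcam1 (8.31%). By mean CPM the Inmt gate was highest for 25 of all 36 members, and the Cr2 gate lowest for 20. The matching shares over all genes were not counted, and the 36 include Egr3 and Nr4a3, which were too low to test.

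Of the 8 AP-1 and ATF genes, 7 passed across the gates, beside 29.3% of all genes. Their summed level was 10146 ± 1966 CPM in the Cr2 gate, 11476 ± 1738 in Madcam1, 17488 ± 1626 in Tnfsf11, 22051 ± 2353 in Fmod and 26633 ± 2759.5 in Inmt (mean ± SD, n = 3 libraries). Values by library are given below in the order 2-IC replicate 1, 2-IC replicate 2 and 1-IC. Fos, an AP-1 subunit, stood at 2344, 3244 and 2444 CPM in the Cr2 gate, 3694, 2915 and 2118 in Madcam1, 5916, 5018 and 4624 in Tnfsf11, 6893, 4852 and 6121 in Fmod and 8501, 6950.0 and 9563 in Inmt. The Inmt sums all lay above those of the other gates, with a log2 difference of 1.18 (SE 0.13, adjusted p = 4.52e-07) from the mean of the other 4 and of -0.91 (SE 0.15, adjusted p = 4.84e-05) for the Cr2 gate.

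Jun, the partner of Fos, stood at 2666, 4511 and 2950.3 CPM in Cr2, 3714, 3917 and 3508 in Madcam1, 5224, 6462 and 4966 in Tnfsf11, 6019, 6640.0 and 6895 in Fmod and 6601, 7274 and 7707 in Inmt. Here the Cr2 and Madcam1 sums overlapped, as did those of Fmod and Inmt, and the Inmt gate was higher by 0.74 (SE 0.10, adjusted p = 8.26e-06). Jund, a Jun relative, stood at 1689, 1336 and 2463 in Cr2, 2037, 1336 and 2231 in Madcam1, 2799, 2035 and 3149 in Tnfsf11, 3623, 2338 and 4318 in Fmod and 3737, 2470.2 and 4754 in Inmt. Its gates overlapped because the libraries were spread in the same order in every gate, with 1-IC highest and 2-IC replicate 2 lowest, and the Inmt gate was higher by 0.70 (SE 0.09, adjusted p = 3.14e-06). Fosb, another Fos-type subunit, stood at 1003, 2090.2 and 629 in Cr2, 1513, 2447 and 714 in Madcam1, 2103, 2558 and 1212 in Tnfsf11, 3038, 2986 and 2120.2 in Fmod and 3341, 3689 and 2211 in Inmt. Fosb was higher at each step of this order in every library, and 1-IC was the lowest library in each gate, with a difference of 0.93 (SE 0.14, adjusted p = 4.06e-05) for Inmt. Among the other 4 AP-1 and ATF genes, Junb, Atf3 and Fosl2 were higher in the Inmt gate by 0.87 to 1.48. Atf4, a factor of the integrated stress response, had a difference of 0.33 for Inmt that did not pass. In the Cr2 gate 7 of the 8 were lower (10.5% of all genes), Atf4 among them, and Fosl2 did not pass.

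**Figure D2:**
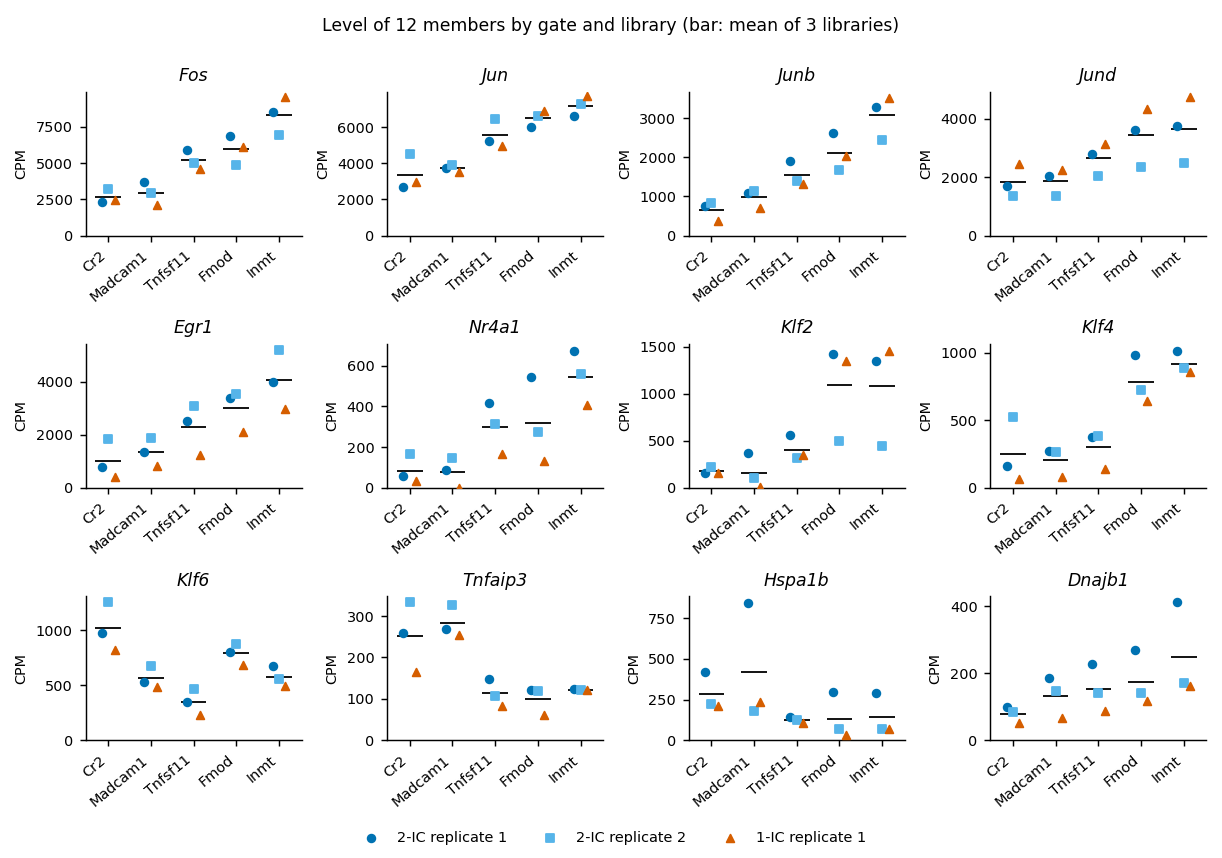
Points give the CPM of 12 members in each gate, one per library (2-IC replicate 1, 2-IC replicate 2 and 1-IC), with a bar at the mean of the 3, on linear axes from 0. The means of Fos, Jun, Junb, Jund and Egr1 climb from gate to gate up to Inmt, those of Nr4a1, Klf2 and Klf4 are lowest in Madcam1 and higher in Fmod and Inmt, while Klf6, Tnfaip3 and Hspa1b have their highest means in the Cr2 or Madcam1 gate.

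The level in single cells was described as a percent of each cell's UMIs. The median cell of the Cr2 gate gave 0.688%, 0.684% and 0.557% of its UMIs to AP-1 and ATF genes in the 3 libraries, and the median cell of the Inmt gate 2.73%, 2.27% and 2.79%. A wide spread remained within each gate, as the tenth to the ninetieth percentile of Inmt cells in 2-IC replicate 1 ran from 0.779% to 4.82%. Heat shock genes took 0.198%, 0.189% and 0.131% in the median Cr2 cell and 0.238%, 0.175% and 0.129% in the median Inmt cell, so that the gates were close for them. The gates differed in depth. Median UMIs per cell by library were 5716, 10091 and 4822 in Cr2 and 4916, 14126 and 6418 in Inmt. Inmt cells were thus deeper than Cr2 cells in 2-IC replicate 2 and 1-IC, and shallower in 2-IC replicate 1. Pooled over libraries, the medians were 6506 in Cr2, 7537 in Madcam1, 8590 in Tnfsf11, 9804 in Fmod and 5937 in Inmt.

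Of the EGR and NR4A factors, Egr1 had means that climbed in the order Cr2, Madcam1, Tnfsf11, Fmod and Inmt. The sparse Nr4a2 had the same order of means, at 4.03, 7.51, 10.7, 11.6 and 21.9 CPM. Its Madcam1 sums ran from 0 to 22.5 CPM, so no order is read from its lower gates. The means of the other factors did not climb in this order. Egr1, a zinc finger factor, stood at 779, 1828 and 420.4 CPM in Cr2, 1343, 1889 and 819 in Madcam1, 2536, 3086 and 1257 in Tnfsf11, 3382, 3549 and 2089 in Fmod and 3980.2, 5186 and 2987 in Inmt. It rose from gate to gate within every library, and the differences were 1.37 (SE 0.14, adjusted p = 1.72e-07) for Inmt and -1.38 (SE 0.17, adjusted p = 9.24e-07) for Cr2. Egr2 was sparse, at 3.64, 17.9 and 0 in Cr2, 4.99, 0 and 0 in Madcam1, 17.6, 41.9 and 12 in Tnfsf11, 27.9, 56.6 and 38.7 in Fmod and 41.6, 37.9 and 13 in Inmt. Its Madcam1 sums include libraries with 0 UMIs, where a count of 0 allows up to 18.2 and 22.5 CPM. The fitted difference for Inmt was 1.72 (SE 0.35, adjusted p = 0.000851), with the Fmod and Inmt sums overlapping. Egr3 had at most 15 UMIs in any sum and none in the 3 Madcam1 sums.

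Nr4a1, an orphan nuclear receptor, stood at 56.4, 164 and 31.4 CPM in Cr2, 89.9, 146 and 0 in Madcam1, 418, 313 and 168 in Tnfsf11, 545, 273 and 132 in Fmod and 672, 559 and 407 in Inmt. The 1-IC sum of the Madcam1 gate held 0 UMIs, which allows up to 22.5 CPM, and the Cr2 and Madcam1 gates overlapped while Inmt lay above Cr2 in every library. The difference was 1.94 (SE 0.24, adjusted p = 2.57e-06) for Inmt and -1.63 (SE 0.35, adjusted p = 0.00116) for Cr2. Nr4a1 is one of the genes by which the study named MedRCs, so its direction in the Inmt gate is not independent evidence. Among cells thinned to 2000 UMIs, 9.5% of Cr2 cells and 47% of Inmt cells had an Nr4a1 UMI (mean over libraries), against 21.3% and 73.7% unthinned. No gated type is known to lack the gene, so a share from free RNA could not be measured. Nr4a2 had 21.9, 30.8 and 13 in Inmt and 9.1, 2.98 and 0 in Cr2, and Nr4a3, untested, had from 0 to 48 UMIs in a sum.

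KLF factors split. Klf2, a factor of quiescence and flow sensing, stood at 157, 218 and 157 CPM in Cr2, 374, 103 and 7.51 in Madcam1, 561, 314 and 345 in Tnfsf11, 1426, 501 and 1346 in Fmod and 1351, 445 and 1454 in Inmt. Within a library Fmod and Inmt were close and both lay above Cr2, and against the mean of the other 4 gates the differences were 1.66 (SE 0.28, adjusted p = 0.000185) for Fmod and 1.69 (SE 0.27, adjusted p = 5.67e-05) for Inmt. The Cr2 difference, -1.44 (SE 0.36, adjusted p = 0.00461), turned to 0.38 without the contaminant filter, when Ms4a1 of B cells stood at 272 to 483 CPM in the Cr2 sums, and the call was lost without 2-IC replicate 1, without the library block and with DESeq2. Klf4 was at 166, 522 and 62.9 in Cr2, 269.6, 267 and 82.6 in Madcam1, 380.3, 385 and 141 in Tnfsf11, 982, 724 and 642 in Fmod and 1018, 885 and 861 in Inmt, with 1.67 (SE 0.24, adjusted p = 1.4e-05) for Inmt. Klf6 went the other way in FDCs, at 981, 1258 and 825 in Cr2, 534, 674 and 488 in Madcam1, 344, 469 and 228 in Tnfsf11, 806, 879 and 689 in Fmod and 680.2, 559 and 498 in Inmt. The Cr2 sum was highest in every library and the Tnfsf11 sum lowest, with differences of 0.93 (SE 0.12, adjusted p = 1.48e-06) and -1.11 (SE 0.13, adjusted p = 1.17e-05).

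IER genes, encoding small nuclear and survival proteins of the early response, were lower in Cr2 for all 3 members (10.5% of all genes) and higher in Inmt for all 3 (11.9%). Within 2-IC replicate 2 alone, Ier3 was 0.16 higher in Cr2 on the log2 scale, against the direction in the other libraries. Ier2 stood at 268, 259 and 471 CPM in Cr2 and 1024, 765 and 1211 in Inmt, and Ier3 at 54.6, 185 and 66.8 and 376, 299 and 367. Ier5 stood at 87.4, 101 and 70.7 in Cr2 and 346, 285 and 169 in Inmt, where the values from 1-IC were lowest in both gates. The 3 differences for Inmt were between 0.90 and 1.41.

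Of the 8 feedback regulators, 7 were higher in Inmt (11.9% of all genes) and 6 lower in Cr2 (10.5%), where Nfkbia did not pass and Tnfaip3 was higher. Dusp1 stood at 957, 868 and 703 CPM in Cr2, 1468, 1767 and 699 in Madcam1, 1709.5, 1362 and 1167 in Tnfsf11, 2283, 1506 and 1617 in Fmod and 2625, 1829 and 1893 in Inmt. The difference for Inmt was 0.80 (SE 0.14, adjusted p = 0.000149). Zfp36 stood at 753, 617 and 483 in Cr2 and 2272, 1495 and 1522 in Inmt, at 1.02 (SE 0.12, adjusted p = 1.93e-06), and Zfp36l1 at 769.8, 1047 and 530.4 and 1455, 1622 and 1276, at 0.63 (SE 0.11, adjusted p = 9.56e-05). Both lay higher in Inmt than in Cr2 in every library. Nfkbia differed little, from 1345, 1357 and 1583 in Cr2 to 1552, 1704 and 1572 in Inmt, at 0.33 (SE 0.10, adjusted p = 0.0143). Socs3 and the antiproliferative factors Btg1 and Btg2 were higher in Inmt by 0.99 to 1.40, and Btg1 in Cr2, at -0.45 (SE 0.16, adjusted p = 0.0398), turned to 0.84 without the contaminant filter and lost its call without 2-IC replicate 1, without 1-IC, with thinned cells, without Malat1-poor cells, without the library block and with DESeq2.

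Tnfaip3, which edits ubiquitin chains on NF-κB signalling proteins, was highest in Cr2 and Madcam1 and is named because its sign stood out. It stood at 260.2, 334 and 165 CPM in Cr2, 269.6, 328 and 255 in Madcam1, 149, 106 and 84 in Tnfsf11, 120.4, 119 and 61.9 in Fmod and 123, 123 and 120.4 in Inmt. The Cr2 and Madcam1 sums all lay above those of the other gates in the same library, with 0.86 (SE 0.16, adjusted p = 0.000192) for Cr2 and 0.90 (SE 0.19, adjusted p = 0.00264) for Madcam1. The lower call for the Inmt gate, -0.43 (SE 0.15, adjusted p = 0.0489), was lost without either 2-IC library, with DESeq2, with the strict gate, with thinned cells and in other settings.

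Heat shock genes showed no common order. Their summed level was 2070.0 ± 550.0 CPM in Cr2, 2374 ± 1183 in Madcam1, 2230.4 ± 569.5 in Tnfsf11, 2285 ± 691 in Fmod and 2301 ± 682 in Inmt. These SDs include shifts between libraries that the gates share. Within 2-IC replicate 1 the sums ran from 2318 in Tnfsf11 to 3719 in Madcam1. They ran from 1873 in Cr2 to 2751 in Tnfsf11 within 2-IC replicate 2, and from 1495 in Madcam1 to 1646 in Cr2 within 1-IC. Hspa8, the constitutive HSC70 chaperone, stood at 1163, 1088 and 955 CPM in Cr2 and 1303, 1347 and 957 in Inmt. Hspa8, Hspa1a, Hsph1 and Hsp90aa1 passed neither in the Cr2 nor in the Inmt gate, with log2 differences from -0.32 to 0.20.

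Hspa1b and Dnajb1 were the 2 of 6 heat shock genes that passed across the gates, near the 29.3% of all genes, and they went opposite ways. Hspa1b, an inducible HSP70, stood at 419, 224 and 208 CPM in Cr2, 844, 182 and 233 in Madcam1, 144, 122 and 108 in Tnfsf11, 295, 67.8 and 31 in Fmod and 291, 68.1 and 70.4 in Inmt. The Cr2 sum was above the Inmt sum in each library, with 0.78 (SE 0.24, adjusted p = 0.0206) for Cr2 and 1.15 (SE 0.26, adjusted p = 0.00543) for Madcam1. Because of the near-identical copy Hspa1a, at 661, 77.5 and 244 in Cr2 and 629, 137 and 287 in Inmt, the call is uncertain, and the Cr2 call was lost without the 1-IC library (adjusted p = 0.141 by edgeR), with cells thinned to 2000 UMIs, without the contaminant filter and without the library block. Dnajb1, the HSP40 co-chaperone of HSP70, stood at 100.1, 83.5 and 51.1 in Cr2, 185, 146 and 67.6 in Madcam1, 228, 143 and 87 in Tnfsf11, 269, 140.2 and 116 in Fmod and 412, 171 and 163 in Inmt. It was lowest in Cr2 and highest in Inmt in every library, with 1.00 (SE 0.14, adjusted p = 8.79e-06) for Inmt and -1.11 (SE 0.19, adjusted p = 0.000109) for Cr2.

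Myc, a growth factor-responsive transcription factor, was at 103, 74.3 and 85.1 CPM in Fmod and 43.7, 32.8 and 15.7 in Cr2, with 1.05 (SE 0.24, adjusted p = 0.00488) for Fmod. Rhob, a small GTPase, was at 638, 424 and 615 in Inmt and 509, 219 and 233 in Madcam1, with 0.63 (SE 0.13, adjusted p = 0.0014) for Inmt.

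Other genes of these pathways, from lists that hold no member, were counted in the same fit. Of 25 early response genes 22 were tested and 14 passed across the gates, beside 29.3% of all genes. In the separate contrast of Inmt with the other gates 15 were higher (11.9%) and 1 lower (7.74%), and in that of Cr2 10 were lower (10.5%). The smallest p-values were those of Cebpb, a bZIP factor, and Trib1, a pseudokinase, with log2 differences of 1.28 and 1.52 for Inmt and -1.78 and -1.44 for Cr2. Of 16 other heat shock genes 15 were tested and 9 passed (29.3%), with 4 higher (11.9%) and 2 lower (7.74%) in Inmt and 3 higher (13.3%) and 3 lower (10.5%) in Cr2. Among them Hspa5, the chaperone of the endoplasmic reticulum, was higher in Inmt by 0.42, and Hspb1, a small heat shock protein, had a difference of -1.75 for Inmt and 1.02 for Cr2.

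RNA quality was described by the share of Malat1, a nuclear RNA. Malat1 was under 1% of UMIs in 49 of 149 Cr2 cells (32.9%), against 8.21% to 14.3% of the cells of the other gates. In 2-IC replicate 1 these shares were 30.1% in Cr2, 24.1% in Fmod, 18.3% in Inmt, 17.9% in Madcam1 and 12.6% in Tnfsf11. In the Cr2 gate the Malat1-poor cells, 25, 9 and 15 by library, had an AP-1 sum of 4140.1, 874 and 1455 CPM. The other cells, 58, 18 and 24 by library, had 9959, 14832 and 11095. In 2-IC replicate 1 the AP-1 sum of Malat1-poor cells was 19690 in Fmod, 13887 in Tnfsf11 and 5401 in Madcam1 (5 cells). The other cells of these gates had 24752, 19423 and 13516. The Malat1-poor sums of Fmod and Tnfsf11 thus lay above the 9959 of other Cr2 cells in that library, and that of Madcam1 below. The heat shock sum was 1497, 1919.5 and 1556 in Malat1-poor and 2984, 1863 and 1668 in other Cr2 cells, close in 2-IC replicate 2 and 1-IC. Klf6 was at 351, 137 and 101 in Malat1-poor and 1135, 1494 and 999.7 in other Cr2 cells, higher in the latter, although Klf6 was high in this gate as a whole. Without Malat1-poor cells 17 members were lower in Cr2 rather than 21, with -0.71 for Fos and -1.17 for Egr1, and the 3 higher members stayed higher, at 1.11 for Klf6 and 1.05 for Hspa1b. The part of these cells in the difference between gates was not tested beyond leaving them out. B cell markers, which the Cr2 gate could hold since B cells express Cr2, summed over 6 genes to 1379, 513 and 746 CPM in the Cr2 gate and 898, 397 and 761 in the Inmt gate, with Ms4a1 at no more than 7.28 in either. The sums were not particular to Cr2, at 1368, 449 and 811 in Madcam1 and 1753, 394 and 795 in Tnfsf11. In Fmod they were 944, 387 and 356.

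**Figure D3:**
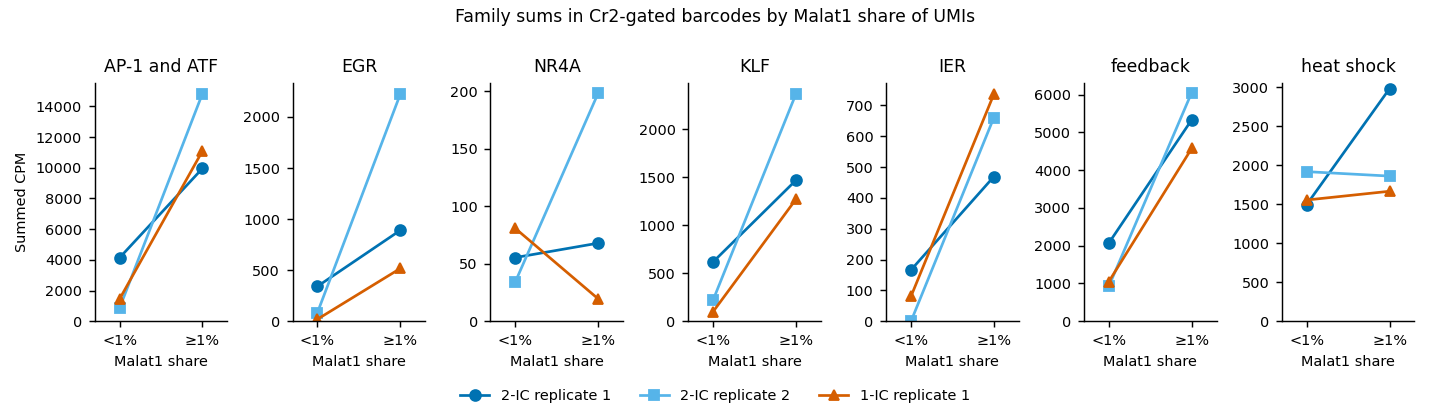
Points joined by a line give, for each library, the summed CPM of each gene family in Cr2-gated cells with under 1% and with at least 1% of UMIs from Malat1, on axes from 0. AP-1, KLF, IER, feedback and EGR sums were higher at 1% or more in all 3 libraries, and the heat shock sum mainly in 2-IC replicate 1. NR4A sums were higher at 1% or more in the 2-IC libraries and not in 1-IC. In 1-IC they were 80.8 CPM in 15 cells under 1% and 19.5 CPM in 24 cells at 1% or more. The NR4A sums are low and from few cells, so no direction is read from them.

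Libraries were compared on the level averaged over the 5 gates with equal weight, without a test, since the 1-IC condition had 1 library. A member was compared where 1 of the pair reached 50 CPM, and 5 of 30 were at least 2-fold apart between 1-IC and 2-IC replicate 1, all lower in 1-IC, beside 2.1% of genes. They were Nr4a1 at 148 against 356 CPM and 4 heat shock genes, Hspa1a at 205 against 639.8, Hspa1b at 130.1 against 398, Dnajb1 at 96.9 against 239 and Hsp90aa1 at 132 against 300.1. Between 1-IC and 2-IC replicate 2, 7 of 31 were (12.1%), with Fosb, Fosl2, Egr1, Ier5, Hsph1 and Hsp90aa1 lower and Klf2 higher in 1-IC. The 2 2-IC libraries also differed, for 3 of 32 members (5.97%), with Hspa1a at 639.8 against 161, Hspa1b at 398 against 133 and Klf2 at 774 against 316 CPM in replicate 1 and replicate 2.

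Hsp90aa1 was the 1 member at least 2-fold lower in 1-IC than in both 2-IC libraries by this measure, at 132 CPM against 300.1 and 497, while Hspa1a and Hspa1b differed as much between the 2-IC libraries. The share of all genes lower in 1-IC than in both was not counted, so nothing particular to the members is read from this. In all 5 gates 1-IC was the lowest library for 12 of 30 members (8.11% of genes), Fosb, Atf4, Egr1, Nr4a1, Klf4, Klf6, Btg2, Zfp36l1, Tnfaip3, Dnajb1, Hsp90aa1 and Hspa8, and it was highest in all 5 gates for 1, Jund (5.68%). In all 5 gates 2-IC replicate 1 was highest for 5 members (4.42%), Zfp36, Hspa1a, Hspa1b, Dnajb1 and Rhob, and 2-IC replicate 2 for 3 (13.8%), Egr1, Zfp36l1 and Hsp90aa1. A library, its sorted cells and its injections cannot be told apart here.

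**Figure D4:**
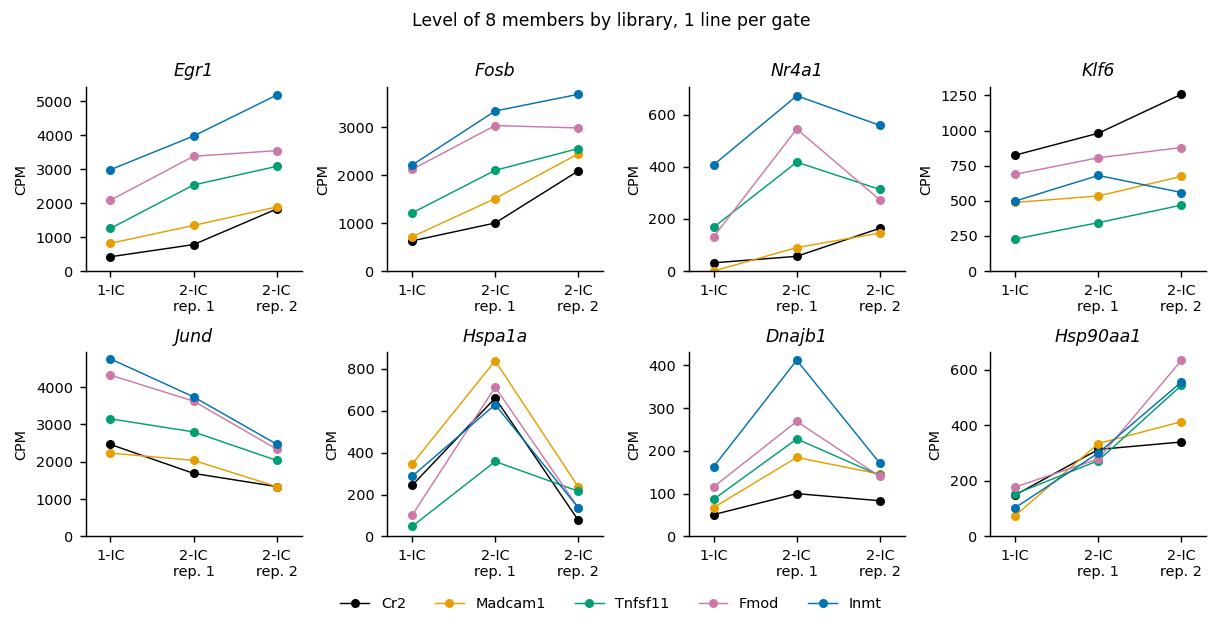
Each line joins the CPM of one gate across the 1-IC library, 2-IC replicate 1 and 2-IC replicate 2 for 8 members, on axes from 0. Egr1 and Hsp90aa1 are lowest in 1-IC in every gate, Jund is highest there, and Hspa1a and Dnajb1 peak in 2-IC replicate 1.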

How the data were processed

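The 3 single-cell libraries were counted by the authors with Cell Ranger (5.0.0 in the file headers) on GRCm38 with Ensembl genes, and UMI counts per gene and barcode were deposited without normalization. Barcodes with fewer than 200 genes, over 10% mitochondrial UMIs or any count of 13 contaminant genes were left out, and no doublet caller was run. Cells were gated by at least 2 UMIs of the gate gene, and counts were summed per library and gate (at least 5 cells). The sums of 1 library share a cell suspension, so the library was a block in the fit, which takes out shifts common to its gates. The p-values thus judge gate differences by how far they varied between these libraries of pooled mice, and not between single mice. The fit draws the spread of each gene toward a trend over all genes, with 1 estimate of spread shared by all gates.

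Sums were tested with edgeR 4.0.16 (R 4.3.3), with TMM scaling, genes kept by filterByExpr, the quasi-likelihood test and a Benjamini-Hochberg threshold of 0.05, and the code was tested on simulated data. Poisson and binomial errors cover counting only; a count of 0 was taken to allow 3 counts. DESeq2 1.42.0, other gates, filters, depth (cells thinned to 2000 UMIs) and left-out libraries were the alternatives.

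The genes, lists and gates were chosen with earlier results of these data known. All 36 were accounted for, and values by library are given for at most 4 genes per family that passed across the gates, by highest mean CPM. Tnfaip3, Hspa1a and Hspa8 were added outside this rule, with their values known.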

Additional observations from a re-analysis of the deposited data

How the results depend on the processing

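Counts below are of members passing in a gate against the other 4 or in a pair of gates. The share of all genes passing was counted for the main fit only. The direction of a called difference was reversed in 1 setting, without the contaminant filter, for Klf2 in Cr2 (0.38, adjusted p = 0.328 by edgeR), Btg1 in Cr2 (0.84) and Btg1 between Cr2 and Inmt (0.29), where the B cell gene Ms4a1 stood at 272 to 483 CPM in the Cr2 sums against 3.93 to 7.28 with the filter. In that setting the counts were 9 between Cr2 and Madcam1, 2 between Fmod and Inmt, 1 lower in Tnfsf11, 0 lower in Inmt and 3 members at least 2-fold apart between 1-IC and 2-IC replicate 2. Of 137 calls, 121 kept their direction and side of the threshold with DESeq2, 128 without TMM, 135 without a filter on low counts and 58 without the library block.

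With no replicate block, the library left out of the model, 19 members passed across the gates, 16 were higher and 0 lower in Inmt, 9 lower in Cr2, 1 higher and 1 lower in Madcam1, 3 higher and 0 lower in Fmod and 1 lower in Tnfsf11, with 0 between Cr2 and Madcam1, 0 between Fmod and Inmt, 1 between Tnfsf11 and Fmod and 1 between Madcam1 and Tnfsf11. No paired analysis between 2-IC and 1-IC was possible because 1-IC had 1 library.

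With a gate of 1 UMI, 1 was higher in Madcam1, 3 higher in Tnfsf11, 10 higher in Fmod and 0 lower in Inmt, with 2 between Cr2 and Madcam1 and 4 between Fmod and Inmt. With the strict gate, 1 was higher in Madcam1, 0 lower in Inmt and 2 passed between Fmod and Inmt. Cells thinned to 2000 UMIs gave 1 higher in Madcam1, 1 higher and 4 lower in Tnfsf11, 0 lower in Fmod and in Inmt, 3 between Cr2 and Madcam1, 6 between Fmod and Inmt, and 5 members 2-fold apart between the 2-IC libraries. Without a filter on low counts, 2 were higher and 7 lower in Tnfsf11, 2 lower in Fmod, 2 passed between Cr2 and Madcam1, 22 between Madcam1 and Tnfsf11, 10 between Tnfsf11 and Fmod and 9 between Fmod and Inmt. Without TMM, 2 were lower in Inmt and 3 passed between Cr2 and Madcam1, and DESeq2 gave 0 lower in Inmt. Without Malat1-poor barcodes 4 were lower in Tnfsf11. Without shared barcodes, a choice made after seeing the data, 11 were lower in Madcam1, 4 were lower in Tnfsf11 and 2 passed between Fmod and Inmt. The cause of these changes was not tested.

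Leaving out each library in turn gave 13 to 21 lower in Cr2, 8 to 16 lower in Madcam1, 0 to 1 higher and 2 to 5 lower in Tnfsf11, 5 to 21 higher in Fmod, 0 to 1 lower in Inmt, 1 to 2 between Cr2 and Madcam1, 3 to 17 between Madcam1 and Tnfsf11, 1 to 15 between Tnfsf11 and Fmod and 0 to 2 between Fmod and Inmt. The low ends for Cr2, Madcam1 and Fmod were without 2-IC replicate 1.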
